A study of Rattus norvegicus with 23 samples.

Results

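Kainate and metabotropic glutamate receptors were followed in the hippocampal CA3 field of 23 male Long-Evans rats, with 1 array of total RNA per animal. The genes were the kainate receptor subunits Grik1, Grik2, Grik4 and Grik5 and the metabotropic receptors Grm3, Grm5 and Grm7, and every probe set that the platform annotation pairs with 1 of these symbols was taken. That gave 8 probe sets for the 7 genes, of 31042 probe sets and 14217 named genes on the array. The groups were aged impaired rats of 24 to 26 months (n = 8), aged unimpaired rats of the same age (n = 6) and young rats of 6 months (n = 9). All were untreated, singly housed and tested in the Morris water maze. An aged rat was called impaired when its learning index was worse than those of the young, and unimpaired when it lay within their range. CA3 was dissected as a block of tissue, so a lower value can come from fewer cells of a type or from less RNA per cell, and the arrays cannot tell these apart.

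Kainate receptors are ion channels of 4 subunits that open when glutamate binds. Grik1 and Grik2 encode subunits that can form channels by themselves (GluK1 and GluK2), while Grik4 and Grik5 encode the high-affinity subunits GluK4 and GluK5, which need a partner such as GluK2. Kainate receptors are known in CA3 for the slow component of the current at mossy fibre synapses and for presynaptic control of release. Metabotropic receptors act through G proteins. Grm5 (mGluR5, group I) couples to phospholipase C and calcium stores in pyramidal cells, Grm3 (mGluR3, group II) lowers cyclic AMP in astrocytes and in some neurons, and Grm7 (mGluR7, group III) lies at presynaptic release sites, where it restrains transmitter release.

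Of the 7 genes, 6 had a promoter entry in the RefSeq table of build GRCr8; Grm3 was not matched. The windows of the high-affinity kainate subunits are shown because Grik5 was the kainate gene that passed a test and Grik4 is its closest relative in function. Each is the 250 bases before the annotated start, read 5′ to 3′ on the minus strand, at chr1:89794910-89795159 for Grik5 and chr8:52102064-52102313 for Grik4. Capitals mark a GC box (GGGCGG on either strand).
Grik5: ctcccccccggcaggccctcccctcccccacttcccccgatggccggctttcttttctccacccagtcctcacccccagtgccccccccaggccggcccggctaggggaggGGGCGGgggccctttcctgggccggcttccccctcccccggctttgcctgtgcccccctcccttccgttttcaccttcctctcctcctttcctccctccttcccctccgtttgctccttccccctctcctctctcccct
Grik4: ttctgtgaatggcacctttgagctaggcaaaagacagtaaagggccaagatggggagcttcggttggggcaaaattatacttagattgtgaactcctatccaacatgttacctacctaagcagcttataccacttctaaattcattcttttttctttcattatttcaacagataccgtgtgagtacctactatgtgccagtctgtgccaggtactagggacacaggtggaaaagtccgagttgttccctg

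The 2 windows differed in base composition. The Grik5 window was 70.8% G and C and held 1 GC box, at position -139 from the start, while the Grik4 window was 43.2% G and C and held none. A GC box lay in 30.5% of the 33469 rat windows of this length, whose median was 51.2% G and C. None of the other letters searched on both strands was in these 2 windows, namely TGACGTCA (1.59% of all windows), CCAAT (34%), TATAAA (12.9%) and the 15-letter NFI palindrome (0.0359%). The match describes the letters of the window and says nothing of the factors that bind there.

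The values are log2 expression values, so a difference of 1 is a doubling, and levels of different probe sets are not comparable. Medians of the arrays ran from 3.39 to 3.46, each array had a mean r of 0.9959 to 0.9974 with the rest, and 0 pairs of arrays were identical. Tests covered the 14647 probe sets that reached a value of 4 on 6 or more arrays, and 6 of the 8 receptor probe sets were among them. Group means were compared with limma in 1 fit over all arrays, p values were adjusted by Benjamini-Hochberg over all tested probe sets of a comparison, and a probe set was called at an adjusted p of at most 0.05. Each difference is the first group named minus the second, with its standard error (SE) or 95% interval.

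The 2 receptor probe sets that were not tested lay at the bottom of the scale on every array. Grik1, whose product is known from hippocampal interneurons, stood at 2.20 on 20 of the 23 arrays and never above 2.28. One of the 2 Grm5 probe sets shared 1 value on 21 arrays and never exceeded 2.25. Both are below what the array can measure in this tissue, so nothing is said of Grik1 or of this part of the Grm5 transcript. The other Grm5 probe set was measured on all 23 arrays.

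The comparison of aged impaired with young animals asks what differs in CA3 when old age comes with lost spatial learning. In it, Grm3 rose and Grik5 fell, and the other 4 tested probe sets did not pass. Of all 14647 probe sets, 9.76% were called in this comparison, 3.88% as higher and 5.88% as lower. The 2 calls in 6 tested receptor probe sets are few to read against that background. The median difference of the 6 was -0.06, against -0.02 over all tested probe sets. In aged unimpaired against young animals 0 of 6 were called by limma, where the background was 2.06%, 1.37% higher and 0.696% lower. There 1 of 6, Grik5, had an unadjusted p under 0.05, as had 2456 of all 14647 probe sets. Between the 2 aged groups 1 of 6 was called, Grm3, where the background was 0.778%, 0.676% higher and 0.102% lower. In both aged groups together against young animals 1 of 6 was called, Grik5, where the background was 6.9%, 3.34% higher and 3.56% lower. These comparisons share animals, so they do not count as separate evidence.

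Grm3 was higher in the impaired animals than in either other group. In aged impaired animals its lowest, median and highest log2 values were 9.90, 10.27 and 10.50. In aged unimpaired animals they were 9.55, 9.69 and 10.35, and in young animals 9.71, 9.82 and 10.07. Of the 8 aged impaired animals, 7 lay above every young animal, and the remaining one, replicate 5, lay within the young range. Of the 6 aged unimpaired animals, 3 lay below every young animal and 1, replicate 7 at 10.35, lay above them all and among the impaired animals.

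The mean of Grm3 was 10.26 ± 0.19 (SD, n = 8) in aged impaired animals, 9.80 ± 0.30 (SD, n = 6) in aged unimpaired animals and 9.86 ± 0.10 (SD, n = 9) in young animals. Against young animals this was 1.31-fold higher in the impaired group (log2 difference 0.39 ± 0.09 SE, limma adjusted p = 0.0113), with 8 of 8 animals above the young median. The unimpaired group differed from the young by -0.06 (95% interval -0.27 to 0.15, adjusted p = 0.811), with 4 of 6 animals below the young median. The direct test between the aged groups gave 1.37-fold in the impaired animals (0.46 ± 0.10 SE, adjusted p = 0.0418). By p, Grm3 stood at position 73 among the 114 probe sets called in that test. In both aged groups together the difference from young was 0.17 (95% interval -0.00 to 0.34, adjusted p = 0.223).

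The difference of Grm3 from young animals was called under each of the 10 other settings tried and with each of the 23 animals left out in turn. The difference between the aged groups was less firm. It was called in 8 of the 23 fits that left out 1 animal, namely those without aged impaired 5, aged unimpaired 2 and 7, and young 2, 3, 6, 7 and 8. Over the 23 fits the difference lay between 0.41 and 0.57 and the adjusted p between 0.0011 and 0.118, lowest without aged unimpaired 7. A gap between control rows also had unlike means in the aged groups, though its ranges overlapped. These are the rows named GAPDH 5′ and GAPDH M, a gap of the kind read as a measure of RNA integrity, but some control rows are out of register with their names. Both rows followed a probe set for the actins (r of 0.93 and 0.90), and the gap averaged 2.14 ± 0.09 (SD) in impaired animals, against 2.28 ± 0.09 in unimpaired ones and 2.22 ± 0.10 in the young. With that gap as a covariate, Grm3 differed by 0.30 between the aged groups (adjusted p = 0.462) and by 0.31 between impaired and young animals (adjusted p = 0.0379). With the covariate 0 of 14647 probe sets were called between the aged groups by limma, and 1276 had an unadjusted p under 0.05.

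**Figure D1:**
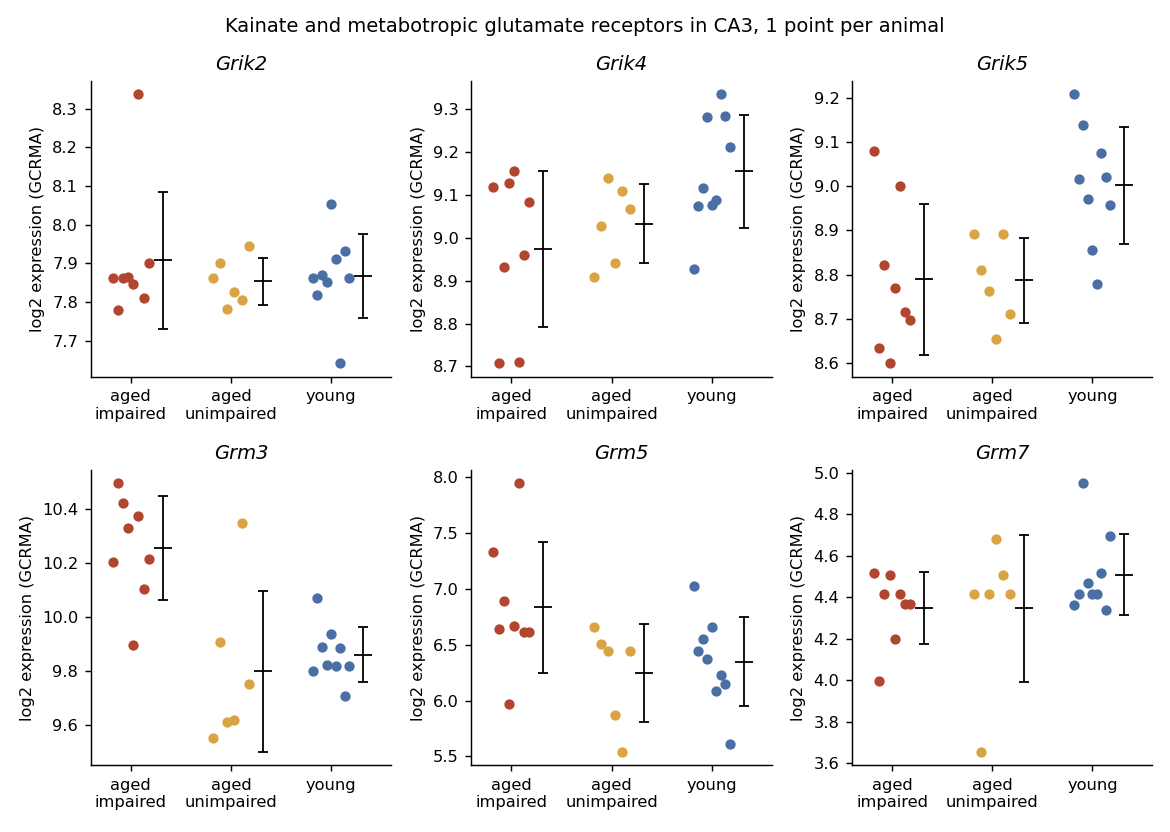
Log2 expression of the 6 tested receptor probe sets (y axis) in aged impaired, aged unimpaired and young animals (x axis), 1 point per animal, with the mean and SD as a bar beside each group. Grm3 stands higher in the impaired group, at 9.90 to 10.50 against 9.71 to 10.07 in young animals, and the Grik5 means are 8.79 in both aged groups against 9.00 in young animals.

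Because Grm3 is made by astrocytes, a list of 15 astrocyte markers was read beside it. Of these, 14 were tested and none lay at the floor. In aged impaired against young animals 5 of 14 rose, among them the intermediate filament Gfap (0.62 ± 0.10 SE, limma adjusted p = 0.0007) and the calcium-binding protein S100b (0.21 ± 0.04 SE, adjusted p = 0.00512). In aged unimpaired against young animals 3 of 14 rose, among them Gfap (0.53 ± 0.11 SE, adjusted p = 0.00955) and S100b (0.21 ± 0.05 SE, adjusted p = 0.0263). Of all tested probe sets, 3.88% were called higher in aged impaired and 1.37% in aged unimpaired against young animals. Between the aged groups 0 of 14 passed (1 at an unadjusted p under 0.05, against 2221 of all 14647 probe sets), and the list's median difference was -0.01. The score of the list, its mean log2 value centred over all arrays, ran from -0.06 to 0.24 in aged impaired animals, from -0.02 to 0.21 in aged unimpaired animals and from -0.27 to 0.02 in young animals. Its mean was 0.05, 0.07 and -0.09 in the aged impaired, the aged unimpaired and the young. The score and the counts take the brightest probe set of each gene. Dimmer probe sets of these genes ran from -0.10 (Slc1a3) to 0.99 (Slc4a4, limma adjusted p = 0.157) between the aged groups. Except for that Slc1a3 probe set, all were higher in the impaired animals, and none was called. Against young animals, dimmer probe sets of Aqp4 (1.01, adjusted p = 0.02) and Glul (0.27, adjusted p = 0.0428) were called higher in the impaired group. The part of astrocytes in the Grm3 result was not tested.

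Other lists were read in the same way. All 10 microglial genes had a probe set and 7 were tested, while Cx3cr1, Itgam and Ptprc stayed below the filter. Their score ran from 0.03 to 0.68 in aged impaired, from -0.01 to 0.43 in aged unimpaired and from -0.64 to -0.19 in young animals. Against young, 6 of 7 rose in each aged group, where 3.88% (impaired) and 1.37% (unimpaired) of all tested probe sets were called higher. For CA2, the small field beside CA3, 4 of 7 markers were tested, and their score ran from -0.22 to -0.04 in aged impaired animals, from 0.03 to 0.21 in aged unimpaired animals and from -0.08 to 0.16 in young animals. Of the 4, 1 was called between the aged groups (0.778% of all tested probe sets were), the adhesion protein Amigo2 (-0.60 ± 0.14 SE, adjusted p = 0.0489). Amigo2 stood at the young level in the impaired animals (0.02, adjusted p = 0.947) and rose in the unimpaired against the young (0.61, adjusted p = 0.0196). In impaired against young animals 2 of the 4 fell (5.88% of all tested probe sets did), the calmodulin-binding Pcp4 (-0.30, adjusted p = 0.0254) and the signalling regulator Rgs14 (-0.24, adjusted p = 0.0254). The difference in the score was not tested. Of 10 CA1 symbols listed, among which Nov and Ccn3 name the same gene, 7 were tested, Ccn3 among them. Their score ran from -0.50 to 0.96 (mean 0.19) in aged impaired, from -0.34 to 0.20 (mean -0.02) in aged unimpaired and from -1.35 to 0.74 (mean -0.16) in young animals. The median CA1 marker stood 0.37 above young and 0.25 above aged unimpaired animals in the impaired group, with all 7 differences between the aged groups above 0 and the transcription factor Etv1 called against young (0.41, adjusted p = 0.0313). Differences between the aged groups were also all above 0 for the tested oligodendrocyte (0.02 to 0.20), oligodendrocyte precursor (0.05 to 0.06) and endothelial and pericyte markers (0.01 to 0.13), with 0 called. For dentate granule cells, which also hold Grm3, 5 of 10 markers were tested, with 0 called in each comparison by limma. Their scores ran from -0.39 to 0.59 in aged impaired, from -0.26 to 0.53 in aged unimpaired and from -0.40 to 0.43 in young animals. The part of these cell types in the Grm3 result was not tested.

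**Figure D2:**
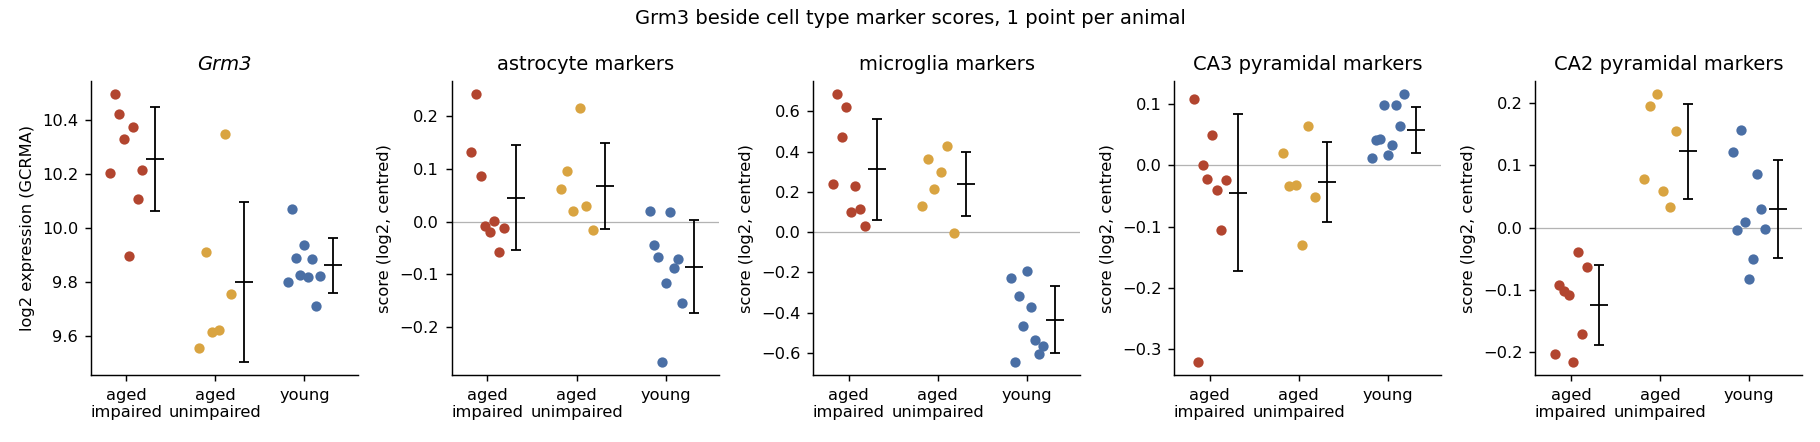
Grm3 log2 expression (first panel) beside the scores of astrocyte, microglia, CA3 and CA2 markers (log2, centred over all arrays), 1 point per animal in aged impaired, aged unimpaired and young animals, with mean and SD. Mean astrocyte and microglia scores lie above the young mean in both aged groups, while the CA2 scores of the aged groups, -0.22 to -0.04 and 0.03 to 0.21, do not overlap.

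Genes whose log2 values follow Grm3 most closely over the 23 arrays were Wdfy1, which encodes an endosomal FYVE-domain protein (Pearson r of 0.93), the cohesin loader Nipbl (0.92) and the kinesin adaptor Trak2 (0.91). With group means taken out r was 0.84, 0.86 and 0.81. They were picked as the highest correlations among all tested genes over the same arrays. That choice also raises the r with group means taken out, and that they share the group differences of Grm3 follows from it. Neither the correlations nor those differences are tested here.

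Grm5 showed the widest spread of the receptors, and no comparison of it passed. The lowest, median and highest values of the measured probe set were 5.97, 6.65 and 7.94 in aged impaired animals, 5.54, 6.44 and 6.66 in aged unimpaired animals and 5.62, 6.37 and 7.02 in young animals. The impaired mean was 6.83 ± 0.58 (SD, n = 8), against 6.24 ± 0.44 (SD, n = 6) in aged unimpaired and 6.35 ± 0.40 (SD, n = 9) in young animals. Aged impaired animals 1 and 6, at 7.33 and 7.94, lay above every young animal, while the others overlapped with them. The difference from young was 0.49 (95% interval 0.03 to 0.94, limma adjusted p = 0.164) and that from the unimpaired group 0.59 (0.08 to 1.10, adjusted p = 0.248). Intervals of this width hold both a difference near 0 and one near 1, so a change of Grm5 could not be shown or set aside with these arrays. The nearest genes to Grm5 over the arrays were Tyro3 (r of 0.72), Brpf1 (0.71) and Luc7l2 (0.71), which fell to 0.58, 0.57 and 0.52 without aged impaired 6.

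Grm7 was dim, close to the level of 4 that the filter asks for. Its lowest, median and highest values were 4.0, 4.39 and 4.52 in aged impaired animals, 3.65, 4.41 and 4.68 in aged unimpaired animals and 4.34, 4.41 and 4.95 in young animals. As many as 8 of the 23 arrays shared the value 4.41 exactly. The groups overlapped, and the differences from young were -0.16 in the impaired (95% interval -0.39 to 0.07, limma adjusted p = 0.377) and -0.16 in the unimpaired group (-0.41 to 0.09, adjusted p = 0.529). The second value rests largely on aged unimpaired 2, the animal at 3.65, since without it the difference was -0.02 (adjusted p = 0.941). Between the aged groups the difference was 0.00 (-0.26 to 0.26, adjusted p = 1), and -0.14 without that animal. The nearest genes were Nmt2 (r of 0.80), Tnks2 (0.78) and Ptcd1 (0.75).

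Among the kainate subunits, Grik5 fell in aged animals, and the means of the 2 aged groups were equal. Its lowest, median and highest values were 8.60, 8.74 and 9.08 in aged impaired animals, 8.65, 8.79 and 8.89 in aged unimpaired animals and 8.78, 9.02 and 9.21 in young animals. Of the 8 impaired animals, 5 lay below every young animal, and so did 3 of the 6 unimpaired animals. Aged impaired 1, 3 and 6, at 9.08, 8.82 and 9.00, lay within the young range, and no aged animal exceeded the highest young one.

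The mean of Grik5 was 8.79 ± 0.17 (SD, n = 8) in aged impaired, 8.79 ± 0.10 (SD, n = 6) in aged unimpaired and 9.00 ± 0.13 (SD, n = 9) in young animals. It was 1.16-fold lower in both aged groups together than in young animals (-0.21 ± 0.06 SE, limma adjusted p = 0.0313), with 13 of 14 aged animals below the young median. In the impaired group alone the difference was -0.21 ± 0.07 (adjusted p = 0.0459), and in the unimpaired group -0.22 ± 0.07 (adjusted p = 0.125). Between the aged groups it was 0.00 (95% interval -0.15 to 0.16, adjusted p = 0.997).

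The size of the Grik5 difference was steady, but its call was at the edge of the threshold. With 1 animal left out, the difference in the impaired group lay between -0.25 and -0.19, and 7 of the 23 fits called it, those without aged impaired 1 and 6, aged unimpaired 1, 6 and 7 and young 5 and 6. For both aged groups together 16 of 23 fits called it. The call was lost without aged unimpaired 6 and 8 and without young 1, 2, 3, 7 and 8, with adjusted p of up to 0.0696 and a difference between -0.24 and -0.19 over the 23 fits. With no filter on dim probe sets, which adds tests, the adjusted p was 0.103 for the impaired group and 0.0738 for both aged groups together.

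Grik4, which is enriched in CA3 pyramidal cells, lay on the same side without passing. Its lowest, median and highest values were 8.71, 9.02 and 9.15 in aged impaired animals, 8.91, 9.05 and 9.14 in aged unimpaired animals and 8.93, 9.11 and 9.33 in young animals. Aged impaired 2 and 6 were the lowest, both at 8.71, and the other 6 impaired animals lay within the young range. The means were 8.97 ± 0.18 (SD, n = 8), 9.03 ± 0.09 (SD, n = 6) and 9.15 ± 0.13 (SD, n = 9) in aged impaired, aged unimpaired and young animals. The difference from young was -0.18 in the impaired group (95% interval -0.32 to -0.04, limma adjusted p = 0.0927), -0.12 in the unimpaired group (-0.28 to 0.03, adjusted p = 0.42) and -0.15 in both together (-0.28 to -0.03, adjusted p = 0.129). Between the aged groups it was -0.06 (-0.22 to 0.10, adjusted p = 0.777). Aged impaired 2 and 6, the lowest for Grik4, had the highest CA1 marker scores of all animals (0.96 and 0.82). Young 1, the lowest young animal for Grik4, had the highest young CA1 score (0.74). Young 4, at 9.28 for Grik4, had the lowest CA1 score (-1.35). Aged unimpaired 1 went the other way, lowest of its group for Grik4 (8.91) and for CA1 (-0.34). The part of CA1 tissue in the Grik4 values was not tested.

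Grik2, which encodes a partner of the high-affinity subunits, stood at nearly one level in all groups. Its lowest, median and highest values were 7.78, 7.86 and 8.34 in aged impaired animals, 7.78, 7.84 and 7.94 in aged unimpaired animals and 7.64, 7.86 and 8.05 in young animals. Apart from aged impaired 6 at 8.34, the aged animals lay within the young range. The differences from young were 0.04 in the impaired (95% interval -0.09 to 0.17, limma adjusted p = 0.713) and -0.01 in the unimpaired group (-0.15 to 0.13, adjusted p = 0.951). The intervals leave room for a log2 change of up to 0.17 upwards in the impaired and of down to -0.15 in the unimpaired group. A shared value of 7.86 occurred on 5 arrays.

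Markers of CA3 pyramidal cells, with Grik4 and Grik5 kept off the list, were read beside the kainate subunits. Of 13 markers 11 were tested, while Coch and Socs2 stayed below the filter. In aged impaired against young animals 3 of 11 fell and 1 rose, where 5.88% of all tested probe sets were called lower and 3.88% higher. The list's median was -0.15, against -0.02 over all tested probe sets. The 3 were Nrip3 (-0.30 ± 0.06 SE, limma adjusted p = 0.00336), the secreted protein Dkk3 (-0.20 ± 0.05 SE, adjusted p = 0.0225) and the granin Chgb (-0.24 ± 0.06 SE, adjusted p = 0.0228), and the kinase Prkcd rose (0.36 ± 0.07 SE, adjusted p = 0.00404). In aged unimpaired against young animals 0 of 11 passed (1 at an unadjusted p under 0.05, against 2456 of all 14647 probe sets), with a median of -0.11. These counts take the brightest probe set of each gene. Of the dimmer ones, that of Bok alone was called in the unimpaired group (-0.36, limma adjusted p = 0.0158). It was also called in the impaired group (-0.24, adjusted p = 0.0382). The brighter Bok probe set was not called in either group (-0.17, adjusted p = 0.306, and -0.16, adjusted p = 0.197). The score of the list ran from -0.32 to 0.11 in aged impaired, from -0.13 to 0.06 in aged unimpaired and from 0.01 to 0.12 in young animals. The differences of Grik5 (-0.21) and Grik4 (-0.18) in impaired animals stand beside that median of -0.15, and the part of the CA3 cell share in them was not tested.

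**Figure D3:**
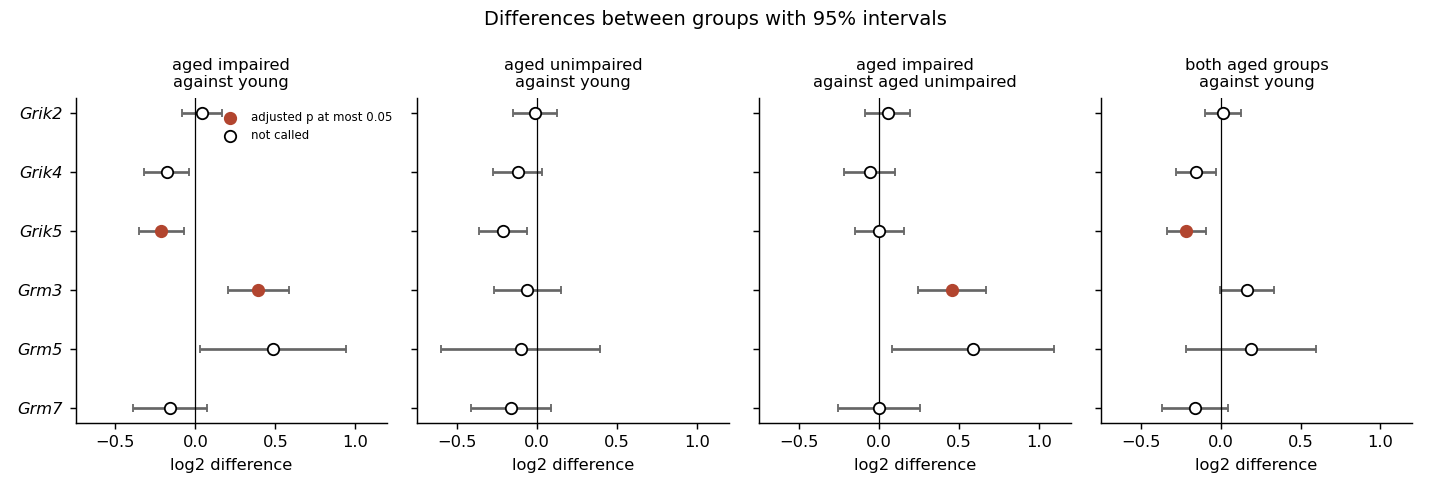
Log2 differences (x axis) of the 6 tested receptors (y axis) in 4 comparisons, as points with 95% intervals, filled where the limma adjusted p was at most 0.05. Grm3 is called in aged impaired against young and against aged unimpaired animals, and Grik5 at about -0.21 in aged impaired and in both aged groups against young animals.

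Over the 23 arrays, Grik5 was followed most closely by Grin1, the obligate NMDA receptor subunit (r of 0.88, and 0.80 with group means taken out), by Actl6b, a subunit of the neuronal BAF chromatin complex (0.87 and 0.82), and by the dynein heavy chain Dync1h1 (0.87 and 0.80). With quantile normalization r was 0.78 for Grin1, 0.85 for Actl6b and 0.78 for Dync1h1. Grik4 was followed by the lipoprotein lipase Lpl (0.79 and 0.73), the calpain Capn5 (0.79 and 0.75) and the mitochondrial carrier Sfxn3 (0.79 and 0.71). The genes nearest to Grik2 were Cdc42bpa (0.85), Gid4 (0.83) and Dlg3 (0.81), which fell to 0.50, 0.46 and 0.41 without aged impaired 6. The genes nearest to each receptor were picked as those of Grm3 were. That choice raises r, also with group means taken out, and none of these correlations was tested.

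Pairs of receptors were compared from animal to animal. Of the 15 pairs of tested receptors, 0 passed a permutation test of r over the 23 arrays after Benjamini-Hochberg adjustment over the pairs, and 2 had an unadjusted p under 0.05. Grik4 and Grm5 ran in opposite directions (r of -0.53, permutation p = 0.01, adjusted p = 0.108, and rho of -0.50, permutation p = 0.0161, adjusted p = 0.242), with r of -0.48 once group means were taken out and -0.35 without the 2 arrays farthest from the Grik4 median. Grik2 and Grm5 had an r of 0.55 (permutation p = 0.0144, adjusted p = 0.108) but a rho of 0.19 (permutation p = 0.396, adjusted p = 0.66), and r was 0.10 without the 2 arrays farthest from the Grik2 median. The relation of Grik2 with Grm5 therefore rests on those arrays, 1 of which is aged impaired 6. Grik4 and Grik5, which lay on the same side in age, had an r of 0.25 (permutation p = 0.25, adjusted p = 0.417) and of -0.08 with group means taken out. Grik5 and Grm5 had an r of 0.28 (permutation p = 0.199, adjusted p = 0.373), and of 0.61 with group means taken out (0.88 within aged impaired, 0.03 within aged unimpaired and 0.48 within young animals). The permutations were over all arrays, and the values with group means taken out were not tested.

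The other genes of the pathway were read from 5 lists. Of other receptor genes, Grik3, Grm2, Grm4 and Grm6 stayed below the filter, and Grm8, a group III receptor, was measured with a difference of -0.07 in impaired against young animals (limma adjusted p = 0.905). Among 9 tested partners of kainate receptors, which include the auxiliary subunits Neto1 and Neto2 and the scaffolds Dlg4 and Grip1, 0 were called in each comparison by limma. Their unadjusted p was under 0.05 for 0 of 9 in impaired against young animals, against 3859 of all 14647 probe sets. Neto1 stood at -0.04 and Neto2 at -0.13 in that comparison. The largest value was that of C1ql3, a secreted protein of mossy fibres that was singled out after its value was seen, at 0.65 between the aged groups (adjusted p = 0.203).

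Of 13 tested scaffolds and signalling genes of group I receptors, 1 fell in impaired against young animals, a share near the 5.88% of all probe sets called lower there. This was Shank2, a scaffold of the postsynaptic density that is tied to mGluR5 through Homer proteins. Its values ran from 10.10 to 10.25 (median 10.18) in aged impaired, from 10.12 to 10.34 (median 10.24) in aged unimpaired and from 10.15 to 10.36 (median 10.31) in young animals, with 3 of 8 impaired animals below every young one. The difference was -0.13 ± 0.03 SE (limma adjusted p = 0.0236), and it missed the threshold with quantile normalization (-0.10, adjusted p = 0.122), with centred arrays (-0.11, adjusted p = 0.0727) and with the replicate block (adjusted p = 0.0609). The list's median was 0.03. Among 11 signalling genes and partners of group II and III receptors, such as the G protein subunits Gnai1, Gnai2 and Gnao1, 0 were called in each comparison by limma. In impaired against young animals 1 of 11 had an unadjusted p under 0.05, against 3859 of all 14647 probe sets. Between the aged groups 3 of 11 had one, against 2221 of all 14647 probe sets. The list's median between the aged groups was 0.13, against -0.02 over all tested probe sets.

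In the list of glutamate uptake, release and metabolism, 1 of 9 tested genes fell in unimpaired against young animals. Of all tested probe sets, 0.696% were called lower there. The gene was Slc17a7, the vesicular glutamate transporter VGLUT1. Its brighter probe set ran from 12.63 to 12.94 (median 12.80) in aged impaired, from 11.92 to 12.80 (median 12.46) in aged unimpaired and from 12.71 to 13.06 (median 12.84) in young animals. Of the 6 unimpaired animals, 5 lay below every young one. The difference was -0.45 ± 0.09 SE (limma adjusted p = 0.0111, and 0.054 with the replicate block) in the unimpaired and -0.10 (adjusted p = 0.46) in the impaired group, and between the aged groups it was 0.34 (adjusted p = 0.0763). In both aged groups together against young it fell by 0.28 (adjusted p = 0.0284), a call lost with no filter (adjusted p = 0.072), with the replicate block (adjusted p = 0.0604) and without young 1, 2 or 3 (adjusted p of up to 0.0648). The second probe set gave -0.78 (adjusted p = 0.033), 0.03 (adjusted p = 0.924) and 0.82 (adjusted p = 0.0504) in unimpaired against young, impaired against young and between the aged groups. The astrocytic glutamate transporters Slc1a2 and Slc1a3, which clear glutamate from the synapse, stood at -0.04 and 0.01 in impaired against young animals and were not called.

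**Figure D4:**
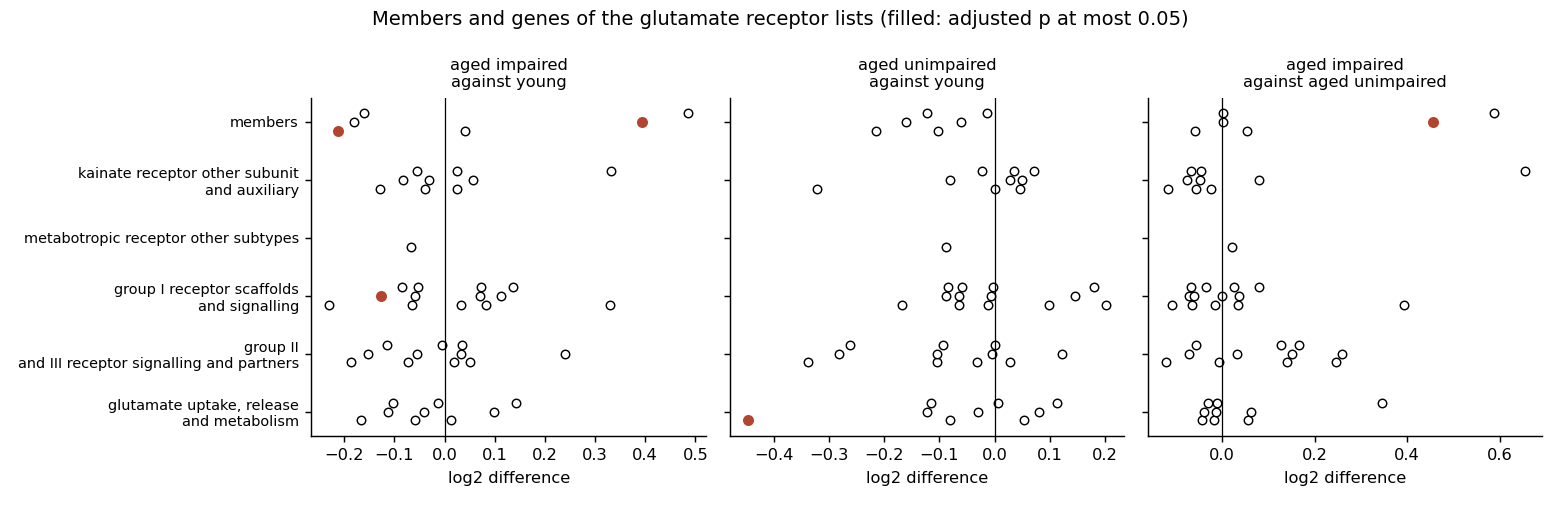
Log2 differences (x axis) of the 6 tested receptors and of the tested genes of 5 lists (y axis), 1 point per gene, in 3 panels, aged impaired against young, then aged unimpaired against young, then the 2 aged groups, filled where called. Apart from Grm3 and Grik5, the filled points are Shank2 in the first panel and Slc17a7 in the second.

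**Figure D5:**
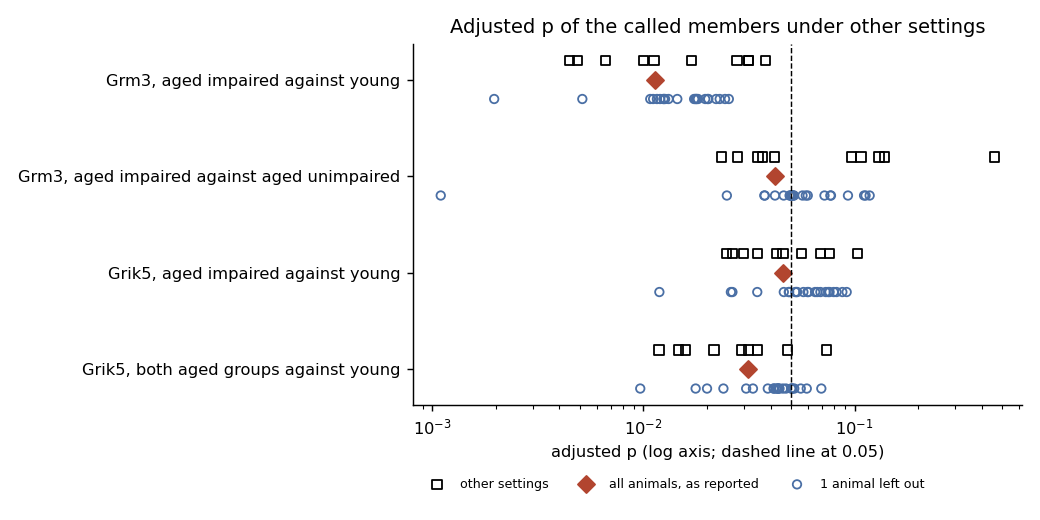
Adjusted p (log axis) of the called receptor differences as reported with all animals, under the other settings, and with 1 animal left out in turn, with the threshold of 0.05 as a dashed line. Grm3 in aged impaired against young animals stays left of the line throughout, while its difference between the aged groups and both Grik5 differences lie on either side.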

How the data were processed

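The deposited values are log2 expression values of 31099 probe sets on 23 arrays, which the authors made with GCRMA, per the submitters' processing notes; of which no version or option was stated in these sources. GCRMA corrects background by probe sequence, equalises the arrays and summarises probes, so dim probe sets collapse onto a floor and differences shared by most probe sets are removed. The 57 control rows were left out of the tests. Some names and values of control rows are out of register, while the median r was 0.25 over 1000 pairs of probe sets for 1 gene and 0.05 over random pairs. Of 31042 probe sets, 20826 named 1 gene. Tests used limma 3.58.1 in R 4.3.3 (lmFit, eBayes, two-sided), on 20 residual degrees of freedom plus 2.35 from the prior, and were checked on simulated data. Receptor pairs were tested with 100000 permutations, two-sided. Where a gene on a list had several probe sets, the brightest was used. Receptors and lists were chosen with earlier results of these data known. Named genes were all receptors, the 3 closest genes to each by Pearson r, and called genes of the pathway lists. The labels name no batch, and the animals are separate rats. Arrays give no read depth, and their number limits the precision. Alternatives covered filters, floor, scaling, array weights, the groups fitted, a replicate block, a control-row covariate and each animal left out.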

Additional observations from a re-analysis of the deposited data

Results flagged for a closer look

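Grm3 differed between the aged groups under the same contrast with young animals, by 0.46 on the log2 scale in a direct test, as described above. In the aged impaired group, Grik2 in replicate 6 lay far from the others, at 8.34, with the nearest animal at 7.90. In the aged unimpaired group, Grm7 in replicate 2 lay far below the others, at 3.65, with the nearest animal at 4.41, a value that other arrays share exactly. With 18 groups of values checked, some can be set apart by chance alone, at a rate not estimated for values shared between arrays.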

How the results depend on the processing

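Counts of called probe sets depended on the setting more than the sizes of the receptor differences did. In aged impaired against young animals 1429 probe sets were called, 768 with no filter, 870 with the replicate number as a block and 937 with the control-row covariate, and 1017 to 1808 with 1 animal left out. Of these calls 39.7% were higher, against 50% of those made after centring the arrays on their medians. In aged unimpaired against young animals the count was 302, 126 with no filter, 672 with array weights and 86 with the replicate block (175 to 382 with 1 animal left out). Between the aged groups it was 114, 2 with no filter, 180 with quantile normalization, 222 with array weights and 4 without aged impaired 1 and 2, a setting chosen after seeing the data. It was 0 with only the compared groups, with the replicate block and with the covariate, where 2049, 1902 and 1276 probe sets had an unadjusted limma p under 0.05. With 1 animal left out it ran from 2, without aged unimpaired 4, to 447, without aged unimpaired 7. For both aged groups against young it was 1010, 509 with no filter and 527 with the replicate block (615 to 1285 with 1 animal left out).

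Of the receptors, 2 were called in impaired against young animals, and 1, Grm3, with no filter, with only the compared groups, with the replicate block and with the covariate (1 to 2 with 1 animal left out). Between the aged groups 1 was called, and 0 with no filter, only the compared groups, the replicate block, the covariate and without aged impaired 1 and 2 (0 to 1 with 1 animal left out; 2, 2, 2, 2 and 1 receptors had an unadjusted p under 0.05). There the Grm3 difference lay between 0.30 and 0.47 and its adjusted p between 0.0234 and 0.462 over 10 settings. For both aged groups against young 1 was called and 0 with no filter (0 to 1 with 1 animal left out). No called receptor changed sign under any setting. Signs of uncalled differences near 0 changed for Grik2, Grik5, Grm3, Grm5 and Grm7. No pairing by replicate number was seen: deviations of same-numbered animals had a median r of -0.01, against 0.01 for different numbers. Of the 23 arrays, 3 correlated best with their own number. These values cannot exclude a step that animals of 1 number shared. Grik1 and 1 Grm5 probe set lie at the floor, where nothing can be measured.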
